A study of Mus musculus with 4 samples.

Results

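Transcription factors of the myeloid lineage set which of the many phagocytes and antigen-presenting cells a progenitor becomes, and 9 genes that encode such factors are described here across the leukocytes of mouse mammary tumors. The 9 genes are *Irf4*, *Irf8*, *Batf3*, *Zbtb46*, *Tcf4*, *Zeb2*, *Spi1*, *Cebpb* and *Klf4*. They were taken from the 32285 genes of the table of unnormalized RNA counts by their names. All 9 were in the table. EO771 cells, a mouse mammary cancer line, were grown as tumors to 1.5 cm3 in female mice, and viable CD45+ cells were sorted and captured on the 10x Chromium platform. CD45 is a surface protein of leukocytes. Of the 4 tumors, 2 grew in Csf1rfl/fl mice and 2 in Lyve1CreCsf1rfl/fl mice, so that every animal carried the floxed *Csf1r* allele, and Cre expressed from *Lyve1* deletes it in any cell that has expressed *Lyve1*, among them LYVE-1+ macrophages and lymphatic endothelium. Each of the 2 Chromium runs pooled 1 tumor of each genotype, marked by a hashtag antibody, so the tumor was the replicate (n = 4, or 2 against 2 by genotype).

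Dendritic cells take up antigen and show it to T cells. Their classical type 1 cells (cDC1) present antigen to CD8 T cells, classical type 2 cells (cDC2) mainly to CD4 T cells, and plasmacytoid cells (pDC) make type I interferon. IRF8 with the AP-1 protein BATF3 is needed for cDC1, IRF4 and in part KLF4 act in cDC2, the E protein TCF4 specifies pDC, and ZBTB46 is a zinc finger protein whose expression sets classical dendritic cells apart from other myeloid cells. ZEB2 represses genes through E-box sequences in many myeloid cells and in pDC. PU.1, the product of *Spi1*, acts at nearly every step of myeloid development, and C/EBPβ drives granulocyte output under stress and is active in monocytes and macrophages. In tumors, such factors help to tell cDC1 from dendritic cells and macrophages that arise from monocytes.

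Cell types were set by gates built from surface and effector genes that include none of the 9 factors. A cell was gated to a type when at least 3 of the 7 markers of that type had a UMI (a counted molecule) and no other list had as many. The names used below stand for these gates, for example cDC1-like cells for cDC1. The gates took 24702 of the 28429 cells that the authors had kept (86.9%) into 14 types, and 3727 cells stayed ungated. They held 6681 neutrophils, 5807 monocytes, 1002 C1q macrophages, 72 Arg1 macrophages, 132 Cd209a DC, 1505 mature DC, 373 cDC1 and 525 pDC on the myeloid side. The lymphoid gates held 1831 NK cells, 2970 CD8 T, 1471 CD4 T, 2051 other T and 96 B cells, and 186 cells had markers of tumor or stromal cells. B cells had as few as 2 cells in a tumor and are left out of the orders and tests. Cd209a DC, marked by *Cd209a*, *Mgl2* and *Flt3*, held as few as 17 cells in a tumor and Arg1 macrophages as few as 8. Mature DC were gated on *Ccr7*, *Fscn1* and *Ccl22*, genes of dendritic cells that have matured and migrate, and this gate does not say from which type they came.

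The depth was 27686362 to 56715743 UMIs per tumor in kept cells, with a median of 3721 to 4657 UMIs per cell. Depth differed between gates, from a median of 2234 UMIs per neutrophil to 10968 per cDC1 and 47020 per tumor or stromal cell. Levels are therefore given as UMIs of a gene per 10000 UMIs of all genes in a gate and tumor. They are not compared between genes. The markers of the monocyte list summed to 80.0 per 10000 in pDC, which share *Ly6c2* and *Plac8* with monocytes, and 263 of 5807 gated monocytes (4.53%) had a UMI of *Cd209a*. In Cd209a DC the monocyte list summed to 32.4 on average, above the 22 of the gate's own list and below the 98.4 of monocytes, while *Lyz2*, in neither list, was at 1.11 against 51.6 in monocytes. Kept cells of the runs shared 60 barcode sequences. Cells not flagged as singlets had been removed by the authors, though 11 kept cells had equal uncorrected counts of both hashtags. A hashtag ratio of at least 3 was reached by 8106 of 8699 kept cells of Csf1rfl/fl run 1 and 7769 of 7786 of Csf1rfl/fl run 2. Pairs of cells from a single tumor could not be seen by hashtags and stayed in.

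The promoter entries of *Irf8*, *Batf3* and *Zbtb46*, each of which was highest in a dendritic cell gate, are shown first. They are the 250 bases before a start given by RefSeq on GRCm38.p6. Capitals mark matches to 7 motifs searched on both strands. Interferon regulatory factors and STAT proteins control several of these genes, which is why their motifs were among those searched. The motifs, with their share of all 32851 promoters of this length, were a pair of GAAA with any 2 bases between them, of IRF proteins (3%), GGAA and GAAA with any 2 bases between them, of ETS with IRF proteins (2.3%), GAGGAAG of PU.1 (10.6%), TTGCNNAA of C/EBP proteins (9.6%), CACCTG of ZEB proteins (17.2%), TGANTCA of AP-1 (6.7%) and TTCNNNGAA of STAT proteins (7%). The IRF motif and the ETS with IRF motif overlap in part of their letters. *Irf8* is encoded on the plus strand of chr8:120736358-120756694, and the window before this start, the first of its 2 entries, lies at chr8:120736108-120736357.
Irf8: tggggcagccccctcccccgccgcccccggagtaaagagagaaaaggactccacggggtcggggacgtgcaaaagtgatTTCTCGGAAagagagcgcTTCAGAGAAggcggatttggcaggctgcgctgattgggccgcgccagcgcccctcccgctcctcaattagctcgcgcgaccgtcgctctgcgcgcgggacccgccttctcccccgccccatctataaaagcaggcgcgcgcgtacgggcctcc
The capitals are 2 matches to the STAT motif, which start 171 and 153 bases before the start of transcription. The second entry, at chr8:120738389-120738638, held 1 match to the E-box of ZEB proteins, 205 bases before its start. *Batf3* is encoded on the plus strand of chromosome 1, and the window at chr1:191098164-191098413 ends at a RefSeq start inside the span of the gene in GENCODE (chr1:191097847-191108945).
Batf3: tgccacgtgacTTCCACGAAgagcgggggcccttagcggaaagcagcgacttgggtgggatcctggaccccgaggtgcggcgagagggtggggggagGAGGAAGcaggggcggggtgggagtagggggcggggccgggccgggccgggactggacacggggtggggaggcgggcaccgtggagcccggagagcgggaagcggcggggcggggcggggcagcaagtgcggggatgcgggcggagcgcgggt
Its capitals are 1 STAT match 239 bases and 1 PU.1 match 153 bases before that start. *Zbtb46* is encoded on the minus strand, and its window at chr2:181424389-181424638 also lies inside the span that GENCODE gives (chr2:181387762-181459426). On this strand the span begins at 181459426, far from the window, and whether the window is a promoter was not tested.
Zbtb46: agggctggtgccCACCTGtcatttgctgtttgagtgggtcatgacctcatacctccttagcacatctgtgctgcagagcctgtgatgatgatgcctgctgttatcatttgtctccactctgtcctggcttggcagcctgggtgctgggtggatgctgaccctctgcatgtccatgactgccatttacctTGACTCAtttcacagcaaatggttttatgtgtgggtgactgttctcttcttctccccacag
Its capitals are 1 match to the E-box of ZEB proteins 238 bases and 1 AP-1 match 61 bases before the RefSeq start. Promoter entries of 7 of the 9 factors, 11 in all, were searched, and no window of *Spi1* or *Tcf4* was among them. The windows of *Zeb2*, some of which overlap, held matches to the C/EBP, PU.1, STAT and AP-1 motifs. The windows of *Irf4*, *Klf4* and *Cebpb* held none of the 7 motifs. A match is a description of letters and was not tested as a site.

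*Irf8*, the interferon regulatory factor of cDC1 and pDC, was highest in pDC, followed by cDC1, mature DC and NK cells. In what follows the values of the 4 tumors stand in the order Csf1rfl/fl run 1, Csf1rfl/fl run 2, Lyve1CreCsf1rfl/fl run 1 and Lyve1CreCsf1rfl/fl run 2, in UMIs per 10000. The level of *Irf8* was 20.2, 28.9, 25.5 and 28.6 in pDC (25.8 ± 4.05, SD, n = 4) and 12.04, 16.3, 12.9 and 14.8 in cDC1. The pDC and cDC1 tumors did not overlap. Mature DC had 8.59, 13.1, 7.63 and 11.2 and NK cells 6.37, 10.6, 7.51 and 9.36, which overlapped, though mature DC were higher in each tumor. Overlap here and below takes no account of which values come from the same tumor. CD8 T cells had 2.42 ± 0.355, below every NK value, and all other gates save the left-out B cells averaged at most 1.78. Of its 12 pairs of neighbours in the order of means, 3 did not overlap: pDC above cDC1, NK cells above CD8 T, and CD8 T above C1q macrophages.

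*Batf3*, the AP-1 partner of IRF8, was as high in mature DC as in cDC1 within the spread of the tumors and low elsewhere. Mature DC had 2.08, 2.47, 2.54 and 2.63, and cDC1 had 2.25, 2.66, 2.54 and 2.13. These groups overlapped throughout, and every tumor of both lay above all other gates that were kept. C1q macrophages came next at 0.553 ± 0.097, then Cd209a DC at 0.361 ± 0.223 and monocytes at 0.272 ± 0.0325. pDC, the gate with the most *Irf8*, had a *Batf3* level of 0.105, 0.125, 0.0354 and 0.068, with a mean below those of the 3 T cell gates (0.124 to 0.154).

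*Zbtb46*, the zinc finger gene of classical dendritic cells, was shared by the 3 classical or mature dendritic cell gates. Its level was 0.535, 0.95, 0.706 and 0.855 in mature DC, 0.305, 0.738, 0.352 and 0.922 in Cd209a DC and 0.445, 0.645, 0.367 and 0.716 in cDC1. These 3 gates overlapped each other, and the lowest cDC1 tumor was above the highest tumor of the next gate, other T cells at 0.113 ± 0.0133. pDC had 0.0773 ± 0.0438, monocytes 0.0799 ± 0.0175 and C1q macrophages 0.0324 ± 0.0128. In Arg1 macrophages no UMI was counted among 427998, where 3 UMIs would be 0.0701 per 10000.

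*Irf4*, known from cDC2 and from activated lymphocytes, was spread over lymphoid and myeloid gates and was nearly absent from cDC1. CD4 T cells had 0.272, 0.451, 0.364 and 0.529, mature DC 0.119, 0.516, 0.307 and 0.373, and Cd209a DC 0.457, 0.391, 0.157 and 0.271. Those gates overlapped, and no pair of neighbours in the order of *Irf4* was without overlap. In cDC1 the counts were 0 UMIs in the first tumor, 5 in the second, 4 in the third and 0 in the fourth, a level of 0.0177 ± 0.0221. Tumor or stromal cells had none among 9290509 UMIs, which allows a level of up to 0.00323 per 10000 for 3 UMIs, counting error only. Within CD4 T cells, those with a UMI of *Foxp3*, the factor of regulatory T cells, had an *Irf4* level of 0.251, 0.488, 0.4 and 0.693, and those without had 0.295, 0.351, 0.297 and 0.273, which overlapped.

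*Tcf4*, the E protein gene of pDC, was 3.85 times as high in pDC as in the next gate by the means of the tumors. Its level in pDC was 12.8, 17.8, 15.5 and 19.96, and in Cd209a DC it was 5.1, 4.99, 1.68 and 5.37. The Cd209a DC lay below all pDC tumors and above all mature DC tumors, which had 0.903, 1.66, 1.06 and 1.56. The other gates held 0.174 to 1.16 on average. Tumor or stromal cells, at 1.16 ± 0.257, had the highest of these.

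*Zeb2*, the gene of the E-box repressor, was highest in macrophages, neutrophils and monocytes and lowest in cDC1. Arg1 macrophages had 5.51, 10.7, 9.68 and 9.69, C1q macrophages 4.24, 6.07, 6.39 and 6.89, neutrophils 4.2, 6.46, 4.81 and 7.18, and monocytes 4.41, 6.34, 4.29 and 6.45. These 4 gates overlapped, though Arg1 macrophages were above C1q macrophages in each tumor. pDC followed without overlap at 3.51 ± 0.735 and Cd209a DC, again without overlap, at 1.61 ± 0.43. cDC1 had 0.559, 0.283, 0.0687 and 0.151, below every mature DC tumor (0.703, 0.669, 0.58 and 0.801), the gate just above it.

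*Spi1*, which encodes PU.1, was highest in monocytes and C1q macrophages. Its level was 5.87, 5.58, 5.44 and 5.4 in monocytes and 5.42, 5.28, 5.54 and 5.0 in C1q macrophages, and these overlapped. Cd209a DC had 4.5 ± 0.711, neutrophils 4.47 ± 0.382 and Arg1 macrophages 3.66 ± 0.757, and the tumors of these 3 gates lay below every monocyte tumor. cDC1 at 2.96 ± 0.359, mature DC at 2.16 ± 0.121 and pDC at 0.978 ± 0.256 formed a descending series in which no tumor overlapped the next gate. NK cells had 0.411 ± 0.125.

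*Cebpb*, the gene of C/EBPβ, was highest in neutrophils, with 25.0, 27.0, 32.5 and 22.8. Monocytes had 12.2, 9.42, 11.4 and 8.47, without overlap with neutrophils. Arg1 macrophages followed at 8.48 ± 2.99 and C1q macrophages at 6.87 ± 1.29. The classical and mature dendritic cells were lowest, with 0.922 ± 0.564 in cDC1, 0.668 ± 0.379 in Cd209a DC and 0.634 ± 0.311 in mature DC. *Klf4*, a factor of monocytes and part of cDC2, was highest in Arg1 macrophages (0.919, 1.41, 2.1 and 0.167) and Cd209a DC (1.14, 0.977, 0.704 and 1.68), followed by pDC at 1.09 ± 0.229 and monocytes at 0.98 ± 0.249. All 12 pairs of neighbours in its order overlapped. Within each tumor, however, pDC were above monocytes, monocytes above C1q macrophages and neutrophils above NK cells.

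**Figure D1:**
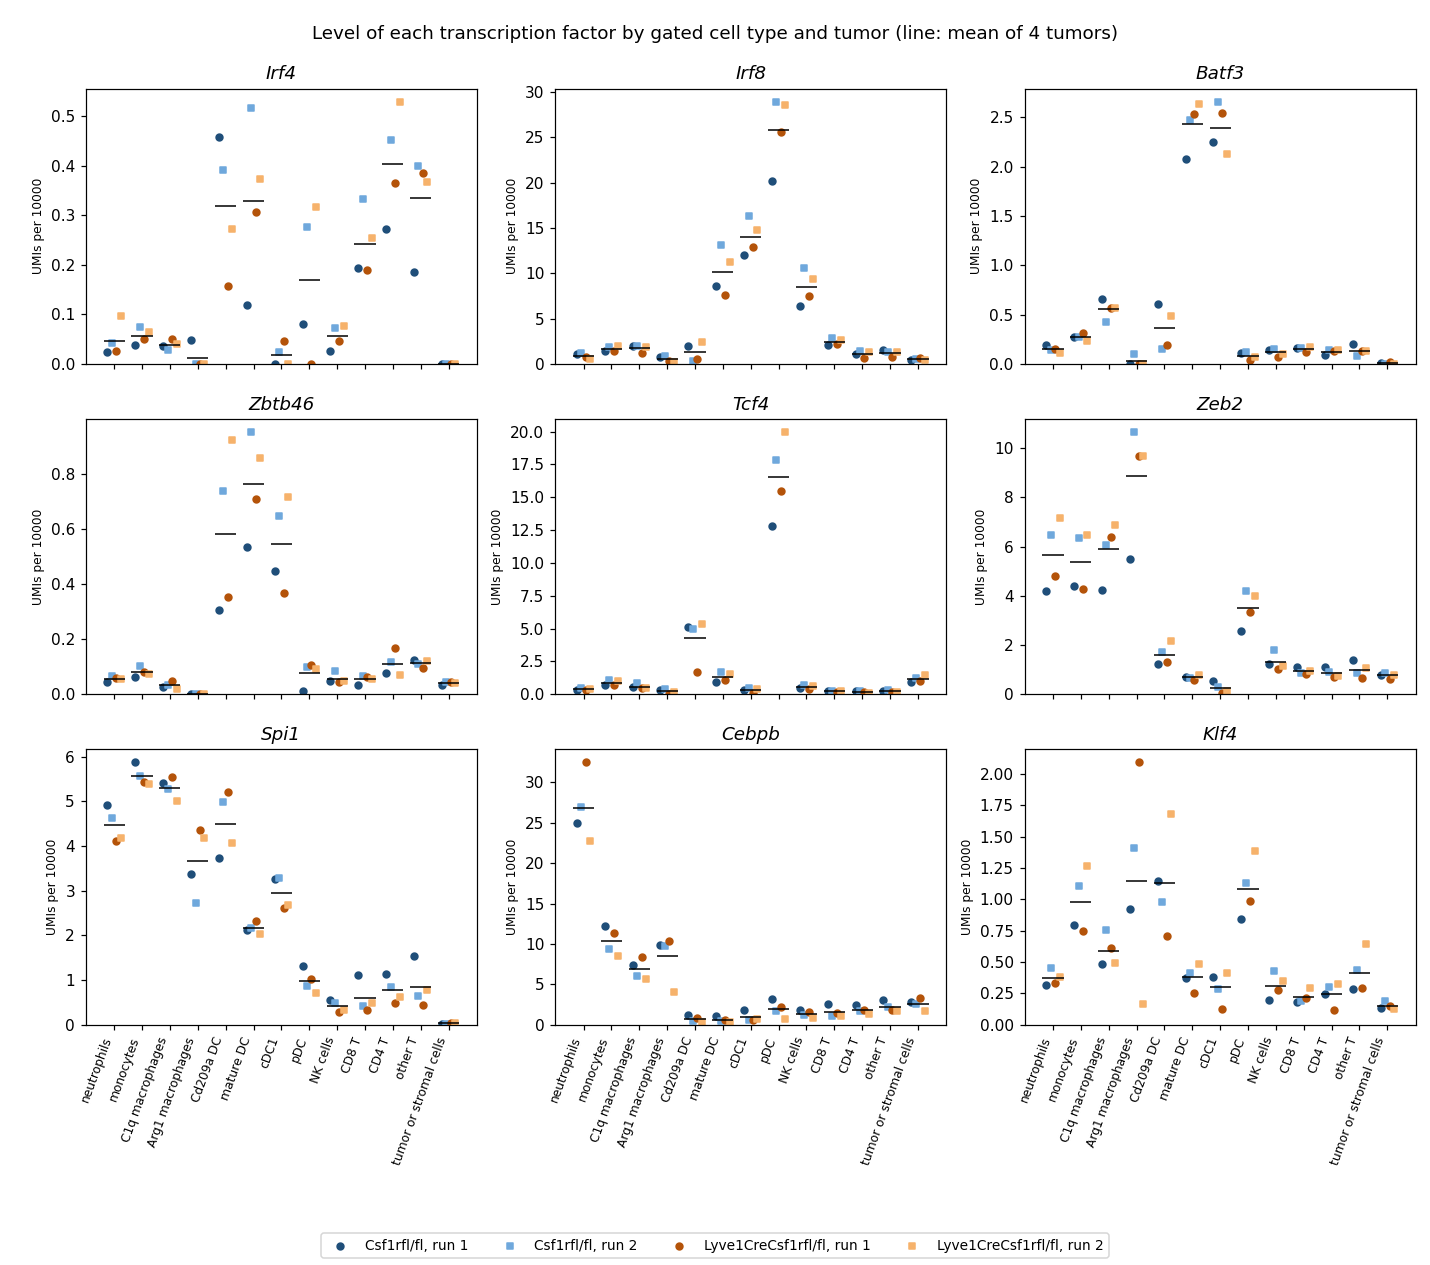
UMIs per 10000 (vertical axis, linear, from 0) of each of the 9 factors in 13 gated cell types (horizontal axis), with 1 point per tumor colored by genotype, circles for run 1, squares for run 2 and a line at the mean of 4 tumors. *Tcf4* stands out in pDC at 16.5, *Cebpb* in neutrophils at 26.8, and *Batf3* in mature DC and cDC1 at 2.43 and 2.40.

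The gates were compared with edgeR on UMIs summed per gate and tumor, with the tumor as a block, and a gene was called at an adjusted p below 0.05 with a fold of at least 2. Over 12 comparisons, 55 of the 108 tests of a factor were called, against 20.6% of all tests over genes. The tumors of the gates did not overlap in 68 of the 108, against 34.7% of the tests over genes with at least 20 UMIs in the pair of gates. Both counts include 3 comparisons added after the levels were seen, cDC1 and mature DC against monocytes and mature DC against cDC1. In these 8, 8 and 3 factors were called, so the pooled counts are not an independent test. Between pDC and cDC1, 7 of the 9 factors were called, against 24.4% of all 11971 genes tested. The 4 higher in pDC (13.5% of all genes) were *Tcf4* by 5.36 ± 0.18 on the log2 scale (SE, adjusted p = 8.13e-25), *Zeb2* by 3.32 ± 0.28, *Irf4* by 2.79 ± 0.61 and *Klf4* by 1.58 ± 0.24. *Irf4* rested on the 9 UMIs of cDC1, and its pDC tumors overlapped those of cDC1. The 3 lower in pDC (10.9% of all genes) were *Batf3* with a log2 fold change of -4.98 ± 0.26, *Zbtb46* with -3.57 ± 0.32 and *Spi1* with -1.91 ± 0.26. *Irf8* differed by 0.58 ± 0.17 (adjusted p = 0.0050), higher in pDC in 4 of 4 tumors but below the fold for a call. *Cebpb* was at 0.83 ± 0.25, also under the fold, and was called in 2 of 15 alternatives. The median over the 9 factors was 0.83, against 0.0584 over all genes. Of all called genes 55.4% were higher in pDC, and 71.3% without scaling factors between libraries.

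Other regulators, a list of 46 transcription factor genes of leukocytes, were read in the same fit. Between pDC and cDC1, 16 of the 46 were higher and 6 lower in pDC. *Spib*, an ETS gene of pDC, had 2.66 ± 0.378 UMIs per 10000 in pDC and 0.012 ± 0.0179 in cDC1, and *Runx2*, a RUNX gene expressed in pDC, had 5.01 ± 0.629 and 0.0841 ± 0.0315. Both were higher in pDC, with log2 fold changes of 7.30 and 5.46. *Zfp366*, which encodes the dendritic cell protein DC-SCRIPT, was lower in pDC, with 0.0342 ± 0.0306 and 0.889 ± 0.133 in cDC1. *Gfi1*, which encodes a transcriptional repressor that acts in granulocyte development, was called on 5 UMIs in pDC and 0 in cDC1.

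Against monocytes, cDC1 had 8 of 9 factors called (26.1% of all genes), 3 higher (10.5%) and 5 lower (15.6%). *Batf3* was higher by 3.23 ± 0.16, *Irf8* by 3.16 ± 0.18 and *Zbtb46* by 2.80 ± 0.18 (edgeR, adjusted p = 4.64e-20, 1.02e-17 and 2.40e-16), each in 4 of 4 tumors. *Zeb2* was lower, at -4.17 ± 0.26, *Cebpb* at -3.50 ± 0.23, *Klf4* at -1.66 ± 0.21, *Irf4* at -1.47 ± 0.56 and *Tcf4* at -1.32 ± 0.18. The call of *Irf4* held in 10 of 15 alternatives. *Spi1* was at -0.84 ± 0.21, under the fold for a call. Of the other regulators 4 were higher and 22 lower in cDC1. *Nr1h3*, which encodes the sterol receptor LXRα, had 0.0228 ± 0.0313 in cDC1 and 0.445 ± 0.112 in monocytes, and *Tfec*, a macrophage gene of the MITF family, 0.0107 ± 0.0183 and 0.375 ± 0.0753. *Gfi1* had 0 UMIs in cDC1 and 88 in monocytes.

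Mature DC differed from monocytes in 8 of 9 factors (32.7% of all genes), 4 higher (14.6%) and 4 lower (18.1%). *Zbtb46* was higher by 3.48 ± 0.16, *Batf3* by 3.42 ± 0.15, *Irf8* by 2.84 ± 0.18 and *Irf4* by 2.74 ± 0.24. *Cebpb* was lower, at -3.83 ± 0.22, *Zeb2* at -2.70 ± 0.22, *Klf4* at -1.11 ± 0.18 and *Spi1* at -1.09 ± 0.20. None of these 8 factors overlapped between the gates, where 49.6% of genes did not. *Tcf4* was at 0.82 ± 0.14 and not called. Of all called genes 44.7% were higher in mature DC, and 32% without scaling factors. Of the other regulators 15 were higher and 22 lower in mature DC, among them *Nr4a3*, an activity-induced nuclear receptor gene, with 4.62 ± 1.3 against 0.288 ± 0.0912. *Tfec* was lower, with 0.00951 ± 0.00414 against 0.375 ± 0.0753, and *Cebpe*, of late granulocyte development, had 1 UMI in mature DC and 179 in monocytes.

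Between mature DC and cDC1, *Irf8*, *Batf3* and *Zbtb46* stayed within the fold for a call. Called were 3 of the 9 factors, a share near the 33.5% of all genes, and all 3 were higher in mature DC (17.1% of genes). The 3 were *Irf4*, by 4.22 ± 0.44, *Tcf4*, by 2.14 ± 0.18, and *Zeb2*, by 1.47 ± 0.29, with no overlap of tumors in any (45.3% of genes did not overlap). *Batf3* differed by 0.19, with a 95% interval from -0.09 to 0.47, and *Irf8* by -0.31, from -0.64 to 0.02. *Zbtb46* was at 0.68 ± 0.16 (edgeR, adjusted p = 0.00048), with overlapping tumors and under the fold. Of the other regulators 16 were higher and 5 lower in mature DC. *Relb*, an NF-κB subunit gene of mature dendritic cells, had 4.34 ± 0.771 in mature DC and 0.287 ± 0.0806 in cDC1, *Nr4a3* 4.62 ± 1.3 and 0.379 ± 0.141, and *Spib* 0.577 ± 0.0875 and 0.012 ± 0.0179. *Gfi1* was called on 6 UMIs in mature DC and 0 in cDC1.

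Cd209a DC, gated with markers of type 2 dendritic cells, differed from cDC1 in 6 factors (10.4% of the 12082 genes tested), 2 of them higher (5.4%) and 4 lower (5%) in cDC1. *Irf8* was higher in cDC1 by 3.97 ± 0.29 and *Batf3* by 3.31 ± 0.27, whereas *Irf4* had a log2 fold change of -3.68 ± 0.60, *Tcf4* of -3.37 ± 0.22, *Zeb2* of -2.27 ± 0.31 and *Klf4* of -1.59 ± 0.30. *Zbtb46* was at 0.12, with an interval from -0.36 to 0.60. The tumors overlapped in none of the 6, and 16.2% of genes were without overlap. Of all called genes 51.9% were higher in cDC1, and 32.3% without scaling factors. Of the other regulators 4 were higher and 15 lower in cDC1. *Id2*, the inhibitor of E proteins on which cDC1 depend, had 8.93 ± 1.44 in cDC1 and 1.28 ± 0.355 in Cd209a DC, and *Spib* had 0.012 ± 0.0179 and 0.27 ± 0.166. *Mitf* and *Gfi1* were called on 3 and 0 UMIs in cDC1 and 11 and 5 UMIs in Cd209a DC.

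Against monocytes, Cd209a DC had 5 factors called (13.2% of all genes), 3 higher (3.93%) and 2 lower (9.23%). *Zbtb46* was higher by 2.69 ± 0.27, *Irf4* by 2.22 ± 0.42 and *Tcf4* by 2.06 ± 0.18, and *Cebpb* was lower at -4.22 ± 0.28 and *Zeb2* at -1.88 ± 0.24. *Irf8*, *Batf3*, *Spi1* and *Klf4* were not called, with values between -0.79 and -0.04. Of all called genes 29.9% were higher in Cd209a DC, and 45.9% with DESeq2. Among the remaining regulators 6 were higher and 15 lower in Cd209a DC. *Maf*, of macrophages and T cells, had 0.0782 ± 0.0957 there and 2.76 ± 0.688 in monocytes. *Tfec* and *Pparg* had 1 and 0 UMIs in Cd209a DC against 1224 and 286 in monocytes. The monocytes with a *Cd209a* UMI lay on the same side of the other monocytes in these 5 factors, described here with no test. Their *Zbtb46* was 0.267, 0.438, 0.392 and 0.535 against 0.0576, 0.074, 0.0615 and 0.0476, and their *Cebpb* was 6.68, 2.71, 3.94 and 1.39 against 12.3, 10.01, 11.8 and 8.86. Neither gene overlapped between those cells and the other monocytes. With these cells counted as Cd209a DC, *Cebpb* was at -1.29 in cDC1 and -1.58 in mature DC against Cd209a DC and called in both, whereas with the gate as set it was at 0.74 and 0.41 and not called.

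Mature DC differed from Cd209a DC in 4 factors (24.8% of all genes), 2 higher (14.7%) and 2 lower (10.1%). *Irf8* was higher by 3.66 ± 0.29 and *Batf3* by 3.50 ± 0.27, and *Tcf4* was at -1.22 ± 0.18 and *Klf4* at -1.05 ± 0.27. *Irf4* and *Zbtb46*, at 0.55 ± 0.35 and 0.81 ± 0.22, were not called. Of all called genes 59.3% were higher in mature DC, and 34.6% without scaling factors. The calls of *Tcf4* and *Klf4* held in 13 and 11 of 14 alternatives. Among the remaining regulators 13 were higher and 8 lower in mature DC. *Relb* had 4.34 ± 0.771 there and 0.672 ± 0.0632 in Cd209a DC, *Id2* 8.52 ± 0.261 and 1.28 ± 0.355, and *Bcl11a*, a factor of pDC and B cells, 0.0642 ± 0.0158 and 2.12 ± 0.454. *Cebpa*, of granulocyte and monocyte progenitors, was lower, with 0.0129 ± 0.00621 against 0.189 ± 0.111.

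**Figure D2:**
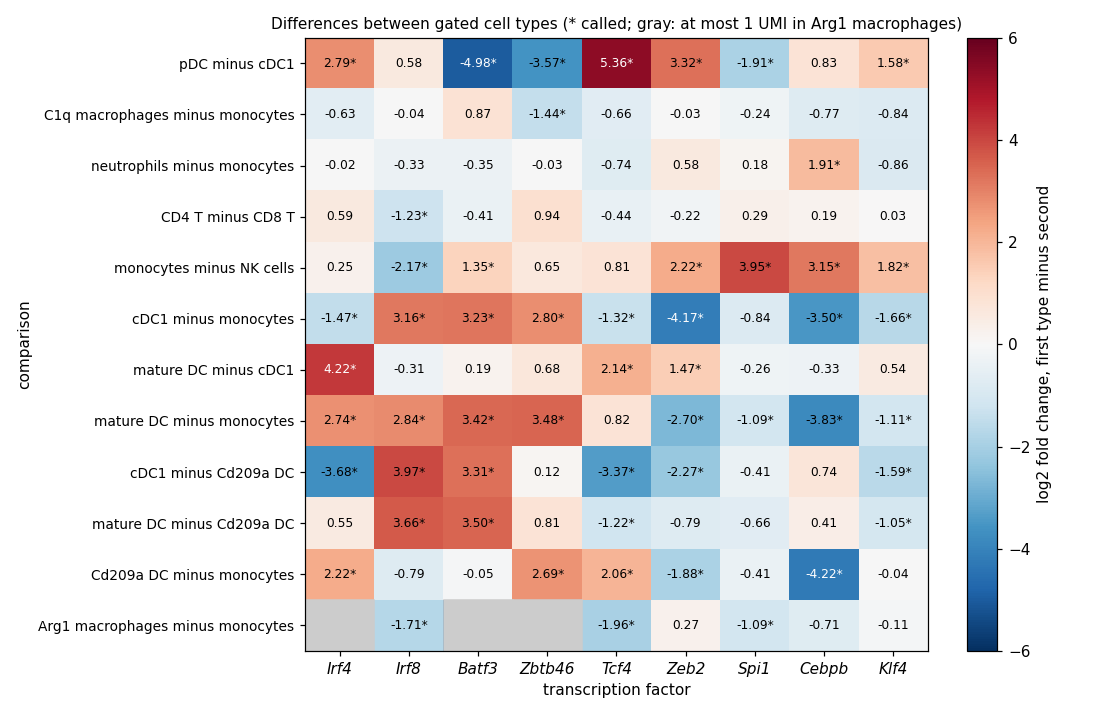
Log2 fold change (color, red for higher in the first type and blue for lower) of each factor (columns) in each of the 12 comparisons of cell types (rows), with an asterisk where the factor was called. *Tcf4* at 5.36 and *Batf3* at -4.98 between pDC and cDC1 are the highest and lowest values printed, and gray cells mark factors with at most 1 UMI in Arg1 macrophages.

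Called against monocytes were 1 of the 9 factors in C1q macrophages (7.89% of all genes), 1 in neutrophils (19.4%) and 5 in Arg1 macrophages (15.3%). For C1q macrophages and neutrophils the count is near or below the share of all genes. C1q macrophages, which express complement C1q and *Apoe*, differed from monocytes in 1 factor (7.89% of all genes), *Zbtb46*, lower at -1.44 ± 0.30 (edgeR, adjusted p = 0.00029), in a direction taken by 3.71% of all genes. *Batf3* was higher by 0.87 ± 0.17 in 4 of 4 tumors without overlap, under the fold for a call. Also under the fold were *Klf4* at -0.84 ± 0.18, *Cebpb* at -0.77 ± 0.19 and *Tcf4* at -0.66 ± 0.16. Each of these was lower in 4 of 4 tumors, *Cebpb* without overlap (17.8% of genes did not overlap). Of all called genes 53% were higher in C1q macrophages, and 66.9% without scaling factors. *Zeb2* differed by -0.03, with an interval from -0.41 to 0.36, and *Irf8* by -0.04, from -0.39 to 0.32. Among the remaining regulators 3 were higher and 5 lower in C1q macrophages. *Pparg*, a lipid-sensing nuclear receptor gene, had 0.568 ± 0.173 against 0.0799 ± 0.0328, and *Bcl11a*, *Cebpe* and *Zfp366* were lower, at 0.0458 ± 0.0158 against 0.373 ± 0.131, 0.00875 ± 0.00775 against 0.0521 ± 0.00853 and 0.0683 ± 0.0661 against 0.177 ± 0.0353.

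Neutrophils also differed from monocytes in 1 factor (19.4% of all genes), *Cebpb*, higher by 1.91 ± 0.19 (edgeR, adjusted p = 3.84e-11). *Klf4* at -0.86 ± 0.16 and *Tcf4* at -0.74 ± 0.14 were under the fold. The scaling factors weighed on this pair: the median of all genes was 0.01 with them and -0.48 without, and the share of calls that were higher in neutrophils was 80.3% with them and 34.2% without. *Spi1*, at 0.18 ± 0.19 with them, had a lower level in neutrophils in all 4 tumors. Where cells with 2 or more markers of another list were left out, 7 factors were called, as were 52.3% of the 7636 genes tested there: *Cebpb* was higher by 3.05 and *Zeb2* by 1.55, and *Batf3* was at -2.17, *Irf8* at -2.15, *Tcf4* at -2.07, *Klf4* at -1.69 and *Zbtb46* at -1.19. Among the remaining regulators 14 were higher and 4 lower in neutrophils. *Egr1*, an immediate early gene, had 15.2 ± 6.12 against 1.38 ± 0.174, *Klf2*, a factor of quiescence, 3.8 ± 0.34 against 1.33 ± 0.276, and *Nr4a3* 0.8 ± 0.292 against 0.288 ± 0.0912. *Tfec* was lower, with 0.0595 ± 0.0175 against 0.375 ± 0.0753.

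Arg1 macrophages, which express *Arg1*, *Spp1* and *Gpnmb*, differed from monocytes in 5 factors (15.3% of all genes), all lower (10.4%, against 4.83% higher). *Tcf4* was at -1.96 ± 0.42, *Irf8* at -1.71 ± 0.43 and *Spi1* at -1.09 ± 0.27, with no overlap of tumors (28.6% of genes). *Batf3* and *Zbtb46* were called on 1 and 0 UMIs in Arg1 macrophages, and *Irf4*, not called, had 1. *Zeb2* was at 0.27 ± 0.22 and *Klf4* at -0.11 ± 0.31. The median of all genes was -0.40 in this comparison, beside which each fall is to be read, and 31.6% of all called genes were higher in Arg1 macrophages, against 67.2% with DESeq2. The calls of *Spi1*, *Batf3* and *Zbtb46* held in 9, 12 and 4 of 13 alternatives. Among the remaining regulators 2 were higher and 19 lower. *Irf7*, an interferon-induced factor gene, had 2.04 ± 0.917 against 12.8 ± 1.17, and *Zfp366*, *Bcl11a* and *Batf2* had 0, 1 and 1 UMIs. The neutrophil marker list summed to 16.6 to 93.4 per 10000 in the 4 tumors of this gate, with 6 of its 7 genes seen, against 16.2 to 41.5 in monocytes and 17.4 to 56.4 in C1q macrophages. Its part in these values was not tested.

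The lymphoid gates served as cells outside the myeloid lineage. Monocytes differed from NK cells in 6 factors (33.3% of all genes), 5 higher (17.4%) and 1 lower (15.9%). *Spi1* was higher by 3.95 ± 0.23, *Cebpb* by 3.15 ± 0.21, *Zeb2* by 2.22 ± 0.21, *Klf4* by 1.82 ± 0.17 and *Batf3* by 1.35 ± 0.19. *Irf8* was lower in monocytes, at -2.17 ± 0.17 (edgeR, adjusted p = 4.20e-14), in 4 of 4 tumors. Of the other regulators 21 were higher and 8 lower in monocytes, among them *Cebpa* (0.155 ± 0.0316 against 0.00701 ± 0.0053), *Tfec* (0.375 ± 0.0753 against 0.0183 ± 0.0136) and *Cebpe*, with 179 UMIs in monocytes and 2 in NK cells. Between CD4 T and CD8 T cells 1 factor was called, a share near the 6.86% of all genes: *Irf8*, lower in CD4 T at -1.23 ± 0.18. *Zbtb46* was higher in CD4 T by 0.94 ± 0.23, without overlap (15.8% of genes did not overlap). *Irf4* was higher by 0.59 ± 0.21, with overlap. Both were higher in 4 of 4 tumors and under the fold for a call. Among the remaining regulators 3 were higher and 4 lower in CD4 T. *Maf* had 6.75 ± 0.9 in CD4 T and 0.686 ± 0.151 in CD8 T, *Runx3*, of cytotoxic T cells, 1.41 ± 0.225 and 3.87 ± 0.9, *Gfi1* 0.0631 ± 0.0225 and 0.165 ± 0.0385, and *Id3*, an inhibitor of E proteins, 0.0705 ± 0.0284 and 0.18 ± 0.087.

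The share of cells with a UMI moved with depth, so cells with at least 2000 UMIs were also thinned to that number and shallower cells left out. The cells deep enough were 57.7% of neutrophils, 72.2% of Arg1 macrophages, 77.3% of other T, 84.4% of CD4 T, 88.3% of NK cells and at least 92% of every other gate, so thinned shares describe the deeper cells. *Irf8* was seen in 99.9% ± 0.162 of pDC and 97.7% ± 2.18 of cDC1, and in 98.7% ± 1.47 and 88.3% ± 4.998 after thinning. Tumor or stromal cells, a gate outside the leukocytes, had 75.3% ± 9.34 at a median of 47020 UMIs and 5.74% ± 3.27 after thinning, against a median of 4239 UMIs in pDC. In these cells the level of *Irf8* was 0.513 ± 0.121 per 10000, near that of Arg1 macrophages at 0.542 ± 0.353, while *Spi1* was at 0.0300 and *Ptprc*, the gene of CD45, at 0.106 on average. Whether *Irf8* there came from free RNA or from the cells was not tested. NK cells kept 71.6% ± 5.80 and CD8 T cells 32.2% ± 2.58 after thinning. *Batf3* was seen in 87.4% ± 2.05 of cDC1 and 58.2% ± 1.43 of mature DC, and after thinning in 39.5% ± 3.03 and 35.0% ± 3.09, whose ranges overlap. CD8 T cells had 4.22% ± 1.09, and 1.22% ± 0.300 after thinning. *Zbtb46* was found in 42.4% ± 9.06 of cDC1, 34.0% ± 12.6 of Cd209a DC and 32.8% ± 5.51 of mature DC, and in 9.85% ± 6.33, 11.9% ± 10.6 and 16.2% ± 2.62 after thinning. *Spi1* was seen in 88.5% ± 2.12 of monocytes, and in 65.8% ± 2.38 after thinning. CD8 T cells, which should lack it and have a median of 5094.5 UMIs against 5038 in monocytes, had 13.2% ± 4.80 and 5.96% ± 3.35.

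**Figure D3:**
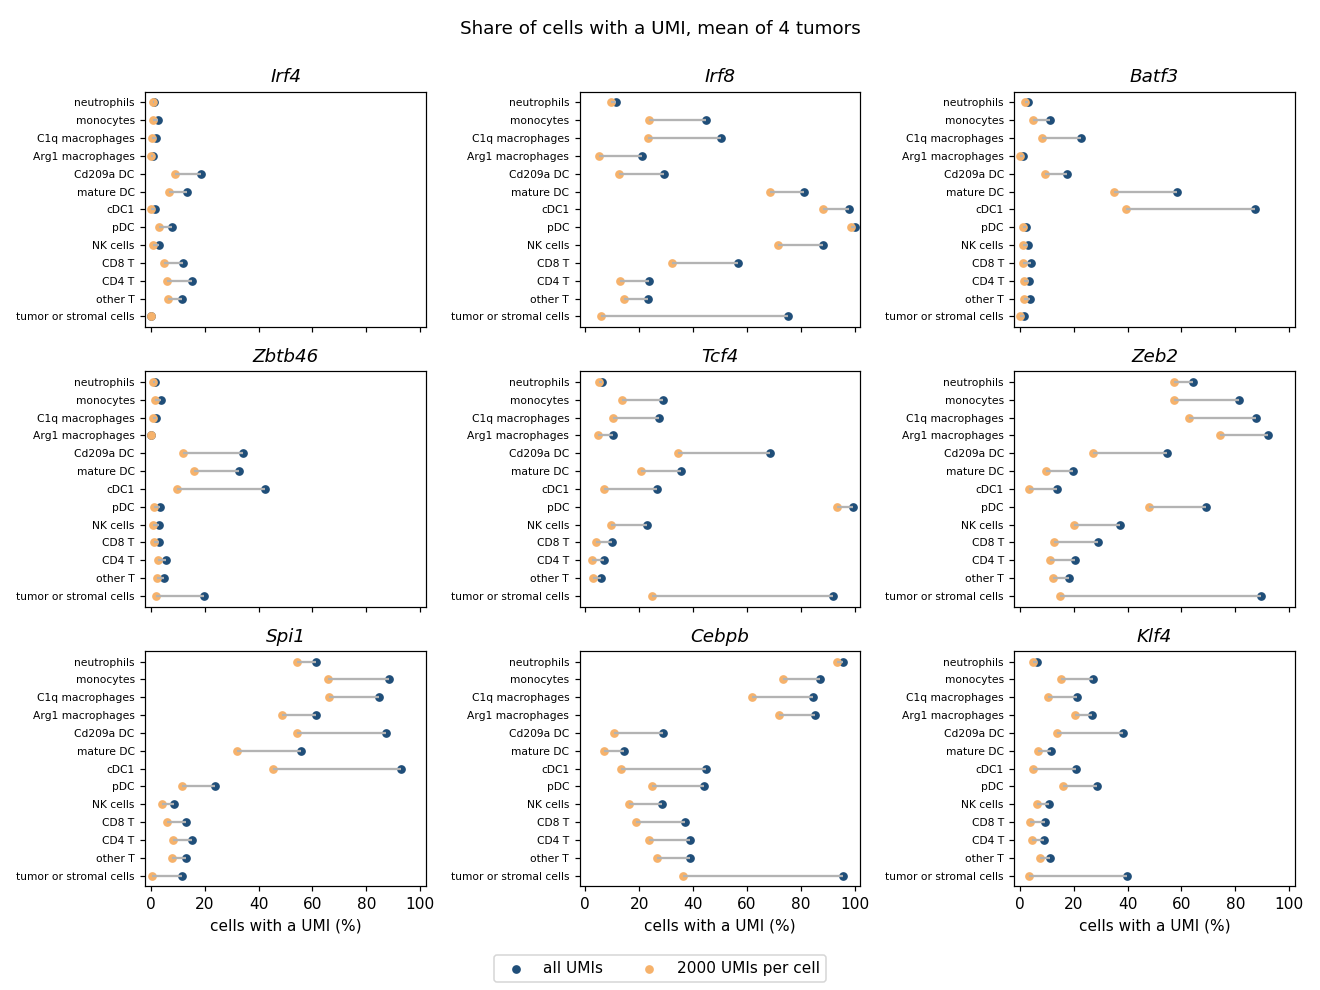
Share of cells with a UMI (horizontal axis, percent, mean of 4 tumors) of each factor by gated cell type, from all UMIs (blue) and from 2000 UMIs per cell (orange). In tumor or stromal cells *Irf8* goes from 75.3% to 5.74%, and in pDC from 99.9% to 98.7%.

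Across the 14 gates, the patterns of the factors were compared by Pearson's r of mean log2(CPM + 1), as a description with no test, over gates that differ in depth and share libraries. B cells were included here, with Lyve1CreCsf1rfl/fl run 2 alone (82 cells), since each of the other tumors held fewer than 8 B cells. The most alike were *Batf3* with *Zbtb46* (r = 0.78) and *Zeb2* with *Cebpb* (r = 0.77), and the least alike *Zbtb46* with *Cebpb* (r = -0.67). *Irf8* had r = 0.56 with *Batf3* and 0.46 with *Tcf4*. Among all other genes, the pattern of *Spi1* was most like that of *Csf2ra* (r = 0.99), the gene of a receptor chain for GM-CSF, followed by *App* and *Pira2*. Likewise *Zbtb46* was most like *Mtmr4*, *Nectin1* and *Zfp366* (r = 0.96, 0.93 and 0.91), *Batf3* most like *Rab43*, *Vps37c* and *Cd83* (0.93, 0.90 and 0.90), and *Zeb2* most like *Rgl1*, its antisense gene *Zeb2os* and *Tpp1* (0.93, 0.90 and 0.90). *Cebpb* was closest to *Mpp1*, *E230013L22Rik* and *Gla* (0.95, 0.93 and 0.93), *Irf4* to *Fuz*, *Arap2* and *Stk24* (0.91, 0.89 and 0.89), *Tcf4* to *Gm26947*, *Ddr1* and *Tmem59* (0.90, 0.86 and 0.86), *Klf4* to *Prkcd*, *Slc15a4* and *Kdr* (0.89, 0.88 and 0.88) and *Irf8* to *Scmh1*, *Gpr4* and *Zfp810* (0.83, 0.80 and 0.80). None of these genes was a gate marker.

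The study asked what loss of *Csf1r* in *Lyve1*-expressing cells does to the tumor, and the factors were compared between genotypes within each of the 11 gates with at least 20 cells in every tumor. *Csf1r* itself had 1.47 and 2.17 UMIs per 10000 in C1q macrophages of Csf1rfl/fl tumors and 1.43 and 1.44 in those of Lyve1CreCsf1rfl/fl tumors. Reads at the 3′ end need not cover the deleted part, so this is no check of the deletion. The C1q macrophage gate held 543 and 258 cells of Csf1rfl/fl tumors and 117 and 84 of Lyve1CreCsf1rfl/fl tumors. With edgeR and no block, 0 of 90 tested pairs of a factor and a gate were called (0.00499% of all tests over genes, 0.0412% of those in CD4 T and 0.00915% in neutrophils), and 6 had an unadjusted p below 0.05, which is 6.67% of the pairs against 2.14% over all genes. DESeq2 called 0 of the factors. Without Csf1rfl/fl replicate 2 there were 6 calls, all lower in Lyve1CreCsf1rfl/fl, where 0.813% of all tests over genes were called and 0.675% were lower: *Zeb2* in cDC1, *Spi1* in CD8 T and other T, and *Cebpb* in mature DC, cDC1 and CD8 T. That fit held Csf1rfl/fl replicate 1 alone for its genotype, and the part of RNA from monocytes and macrophages in these 6 calls was not tested. Of the other regulators 0 were called without a block. With 2 tumors against 2, an exact two-sided permutation test cannot go below p = 0.3333.

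With the run as a block, 2 factors were called, against 0.26% of all tests over genes (0.106% of those in monocytes, 0.554% in cDC1 and 0.844% in CD4 T), and both were lower in Lyve1CreCsf1rfl/fl tumors. *Zeb2* in cDC1 had 59, 57, 6 and 8 UMIs, a level of 0.559 and 0.283 in Csf1rfl/fl against 0.0687 and 0.151. The genotypes did not overlap. Its log2 fold change was -1.91 ± 0.50 (edgeR, adjusted p = 0.57) and, with the block, -1.97 ± 0.41 (adjusted p = 0.012). The 7 genes of the C1q macrophage list summed to 1.32 and 0.79 in cDC1 of Csf1rfl/fl tumors and to 0.18 and 0.19 in cDC1 of Lyve1CreCsf1rfl/fl tumors, and all 7 were seen. The monocyte list summed to 25.7 and 14.9 against 14.2 and 12.9, and *Lyz2* was at 3.88 and 0.942 against 0.55 and 0.753. In the 77 cDC1 with a UMI of the C1q macrophage list, *Zeb2* was at 1.10 and 0.813 against 0.118 and 0, without overlap. These were 25 and 34 cells of Csf1rfl/fl tumors but only 11 and 7 of Lyve1CreCsf1rfl/fl tumors, whose levels thus rest on few cells. In the 296 cDC1 without one, which held 44 UMIs of *Zeb2*, the levels were 0.252 and 0.1 against 0.0568 and 0.178, and the genotypes overlapped. Cells with monocyte markers or *Lyz2* stayed in both parts, and the part of RNA from monocytes and macrophages was not tested.

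*Spi1* in CD4 T cells had 1.14 and 0.847 in Csf1rfl/fl tumors and 0.484 and 0.609 in Lyve1CreCsf1rfl/fl tumors, without overlap. The change was -0.87 ± 0.25 (edgeR, adjusted p = 0.60) and, with the block, -0.85 ± 0.18 (adjusted p = 0.016). Here too the C1q macrophage list differed, at 3.08 and 2.87 against 0.75 and 0.74. The monocyte list, at 16.5 and 12.6 against 7.64 and 11.8, and *Lyz2*, at 3.87 and 3.21 against 1.37 and 2.53, were also higher in Csf1rfl/fl tumors without overlap. In the 266 CD4 T cells with a UMI of the C1q macrophage list, *Spi1* was at 1.91 and 1.75 against 1.27 and 1.06, without overlap. In the 1205 without one, it was at 0.684 and 0.487 against 0.289 and 0.47. These did not overlap either, with 0.487 and 0.47 as the nearest values of the genotypes. Cells with monocyte markers or *Lyz2* stayed in this split, and the part of RNA from monocytes and macrophages in these values was not tested.

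**Figure D4:**
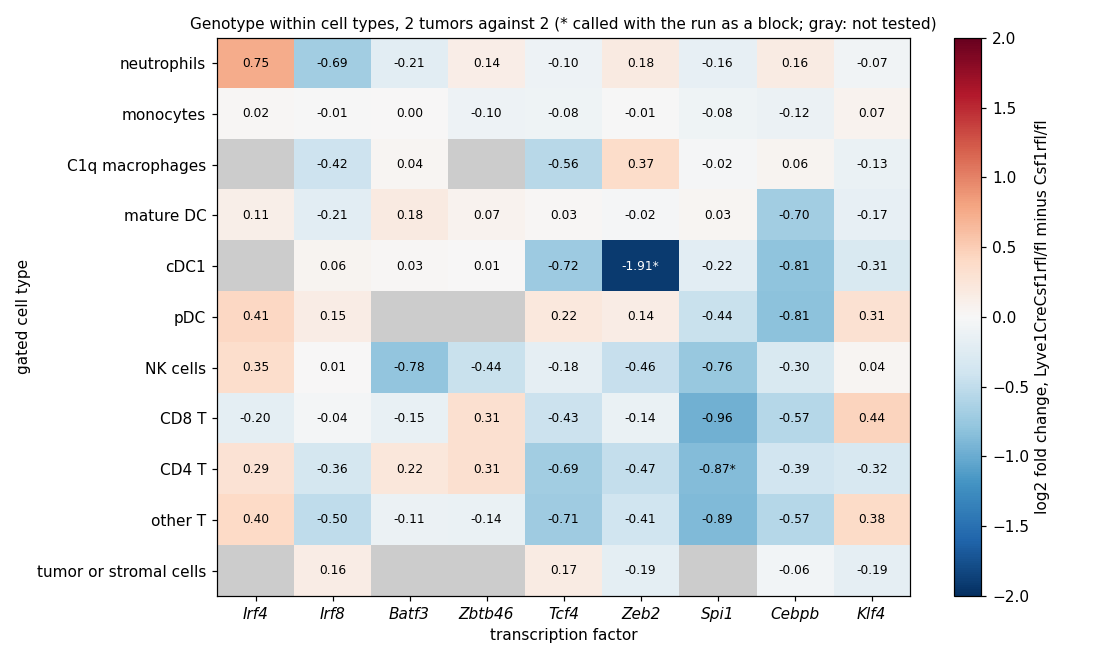
Log2 fold change between genotypes (color, red for higher in Lyve1CreCsf1rfl/fl and blue for lower, 2 tumors against 2) of each factor (columns) within 11 gated cell types (rows), without a block, where none was called. An asterisk marks *Zeb2* in cDC1 at -1.91 and *Spi1* in CD4 T at -0.87, which were called with the run as a block, and gray cells were not tested.

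Whether a difference between cell types itself differed between genotypes was tested in 5 comparisons for each factor. Of 45 tests 0 were called (0% of all genes), and 2 had an unadjusted p below 0.05, *Zeb2* and *Tcf4* between pDC and cDC1, against 3.57% of all tests over genes. For *Zeb2* the difference between pDC and cDC1 was larger in Lyve1CreCsf1rfl/fl tumors by 2.01 ± 0.63 on the log2 scale (edgeR, adjusted p = 0.78). Leaving out 1 tumor gave 1.15 to 2.81 with adjusted p from 0.011 to 0.99, and the call arose without Csf1rfl/fl replicate 2, where 5 of 12007 genes were called. The C1q macrophage and monocyte lists in cDC1, given above, differed between the genotypes as well, and their part was not tested.

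The levels also varied with the Chromium run. Over pairs of a factor and a gate with at least 20 UMIs, both tumors of run 2 lay above both of run 1 in 36 of 95 pairs, against 36.9% of such pairs over all genes, which is near that background. The factors were uneven in this. *Irf4* was higher in run 2 in 7 of 9 gates, and *Irf8*, *Tcf4* and *Klf4* each in 7 of 11, whereas *Cebpb* was higher in run 1 in 8 of 11 gates, against 14.7% of pairs over all genes. Monocytes show the size, with *Cebpb* at 12.2 and 11.4 in run 1 and 9.42 and 8.47 in run 2. Neutrophils had the highest level of *Cebpb*, and the part of neutrophil RNA in the other gates was not tested. Gates of a single tumor are not independent, and the run, its capture and its animals cannot be told apart. By genotype, both Csf1rfl/fl tumors were above both Lyve1CreCsf1rfl/fl tumors in 18 of 95 pairs (12.9% over all genes), 5 of them for *Spi1*, and below in 5 (10.1%).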

How the data were processed

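RNA and hashtag libraries came from 2 Chromium runs (10x 3′ v2). Per the labels, reads were processed with Cell Ranger 6.0.1 on mm10 and with Seurat. The authors deposited whole-number counts of UMIs per gene and barcode and counts of hashtags, with no normalization. They also deposited a table of corrected values for 18449 genes, whose whole-number entries are treated as scores and served only to name the cells that the authors kept: singlets under their limit for mitochondrial UMIs, outside 4 clusters particular to 1 tumor. Cells were assigned to tumors by whichever hashtag of the run was higher after a centered log ratio scaling. All values rest on the uncorrected counts.

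UMIs were summed per gate and tumor. Gates were compared with the quasi-likelihood test of edgeR 4.0.16 in R 4.3.3 (limma 3.58.1), with filterByExpr, TMM factors, the tumor as a block and Benjamini-Hochberg adjustment over all genes tested. Genotypes were compared within gates, without a block. Intervals were made from the SE at 95%. SDs hold the spread between tumors. SEs come from the fits, and where the tumor or the run is a block they hold only the spread left after its differences are removed. Floors of 3 UMIs cover counting error only. Gates needed 20 cells per tumor. Cd209a DC and Arg1 macrophages did not reach this, and the 4 comparisons with them used a minimum of 8 cells, chosen after the gate sizes were seen. A further 3 comparisons (cDC1 and mature DC against monocytes and against each other) were added after the levels were seen. The factors, markers and lists were chosen with earlier results of these data known. Named were all 9 factors, in each comparison up to 4 called regulators of the list of 46 with the largest change, and per factor the 3 genes of most like pattern, among genes with at least 10 CPM in a gate. A regulator that the rule named in some comparisons is not reported here.

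The replicate number marks a shared capture, and it paired the tumors: deviations of tumors of the same run from their genotype means correlated over genes with r from 0.248 to 0.745 in 11 gates. On simulated counts, the comparison of C1q macrophages with monocytes recovered 99% and 100% of genes changed by 1.5 and 3 on the log2 scale, with 4 false calls among 11788 genes. The genotype comparison in monocytes recovered 70% and 100% of genes changed by 1 and 2, with 7 false calls among 11136. In both simulations only genes above a set level in monocytes were changed, and the counts held no effect of tumor or run. *Irf4*, *Zbtb46* and *Batf3* lay below that level in monocytes, so the rates do not cover them. The genotype rates hold for monocytes, with at least 920 cells in each tumor. Recovery was not tested in smaller gates, such as cDC1 with as few as 42 cells in a tumor. Alternatives were DESeq2 1.42.0, other scaling, filters, gates, hashtag rules and blocks, and leaving out each tumor. Tables and plots were made in Python 3.11.15 (pandas 2.3.3, matplotlib 3.10.9, numpy 2.4.6 and scipy 1.17.1).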

Additional observations from a re-analysis of the deposited data

Results flagged for a closer look

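In 115 groups of 4 tumors, 9 had a tumor far from the other 3 by Dixon's test, which chance alone gives in about 1 of 20 groups. For 2 of the 9, *Irf4* and *Batf3* in Arg1 macrophages, the value is 1 UMI beside 0 in the other tumors, which any single UMI would mark in this way. In Csf1rfl/fl replicate 1, *Irf4* was 0.0484 UMIs per 10000 in Arg1 macrophages (0 in the others) and 0.186 in other T (others 0.367 to 0.399), *Zbtb46* was 0.0124 in pDC (others 0.0906 to 0.106) and *Cebpb* was 1.76 in cDC1 (others 0.561 to 0.735). In Csf1rfl/fl replicate 2, *Batf3* was 0.101 in Arg1 macrophages (0 in the others) and *Zbtb46* was 0.0849 in NK cells (others 0.0456 to 0.0493). In Lyve1CreCsf1rfl/fl replicate 1, *Irf8* was 1.18 in C1q macrophages (others 1.89 to 2.02) and *Tcf4* was 1.68 in Cd209a DC (others 4.99 to 5.37). In Lyve1CreCsf1rfl/fl replicate 2, *Cebpb* was 4.01 in Arg1 macrophages (others 9.76 to 10.3).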

How the results depend on the processing

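Of the 55 called differences between gates, 49 kept their call in every alternative run, and 1508 of 1611 values of single factors kept direction and side of the threshold. Another 23 lost and 23 gained a call, 55 uncalled values changed sign, and 2 reversed. The reversed values were *Cebpb*, at -1.29 in cDC1 and -1.58 in mature DC against Cd209a DC when monocytes with *Cd209a* were moved to that gate. Without scaling factors the factors called were 2 in C1q macrophages (8.51% of all genes in that fit), 3 in neutrophils (28.8%) and 3 in Arg1 macrophages (13%) against monocytes, 2 between CD4 T and CD8 T (6.98%) and 6 between mature DC and Cd209a DC (25.7%). Between pDC and cDC1, 8 factors were called without scaling factors (26.7%). DESeq2 and RLE factors each gave 3 for Arg1 macrophages (16.6% and 13%), and the gate without cells of mixed markers gave 7 for neutrophils, where 52.3% of all genes were called. Leaving out a tumor gave 1 to 2 for C1q macrophages (6.17% to 8.03% of all genes), 1 to 2 between CD4 T and CD8 T (5.57% to 6.64%), and 2 to 4 for Arg1 macrophages (11% to 14.1%), the fewest without Csf1rfl/fl replicate 1. For Cd209a DC against monocytes it gave 5 to 6 (10.8% to 12.2%), with 6 without Csf1rfl/fl replicate 1 or Lyve1CreCsf1rfl/fl replicate 2. It gave 7 to 8 between pDC and cDC1 (22.4% to 23.2%) and 7 to 8 for cDC1 against monocytes (23.2% to 25.7%). Between mature DC and Cd209a DC it gave 3 to 4 (20.2% to 23.8%). Fits that left out 1 tumor took the remaining tumor of its genotype to vary as the other tumors did. The cause of these moves was not tested.

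Between genotypes, no filter on low counts gave 2 calls (*Zeb2* in cDC1 and *Spi1* in CD8 T), where 0.296% of all tests over genes were called against 0.00499%, the replicate block, in which the run pairs the tumors, also gave 2 (*Zeb2* at -1.97 in cDC1 and *Spi1* at -0.85 in CD4 T), and leaving out a tumor gave 0 to 6. The 6 arose without Csf1rfl/fl replicate 2 (0.813% of all tests), and 1 arose without Lyve1CreCsf1rfl/fl replicate 2 (0.269%). The block changed no other call of a factor. Of 1301 values, 1171 kept direction and side, and 119 uncalled ones changed sign. Of the interactions, 1 was called with no filter (0.188% of all tests over genes), and 0 to 1 when a tumor was left out, the 1 without Csf1rfl/fl replicate 2 (0.0233%). Without the tumor as a block, 2 calls between gates were lost (*Irf4* in cDC1 and *Zbtb46* in Arg1 macrophages, both against monocytes).

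The mean over cells moved 29 of 117 levels by more than 1 SD, and thinning moved 103 of 117 shares. The gate without cells of mixed markers left at least 20 cells per tumor in 7 of 14 gates, so the comparisons with C1q and Arg1 macrophages, Cd209a DC, cDC1 and pDC could not be run there, nor could Arg1 macrophages with at least 4 markers. It kept 7 of 525 pDC, 24 of 373 cDC1, 68 of 1002 C1q macrophages and 3 of 132 Cd209a DC. Of monocytes it kept 1182 of 5807, and of neutrophils 3635 of 6681. The cells it dropped from these gates had 2 or more markers of another list. Low counts limit what could be detected for *Irf4* in cDC1 (9 UMIs) and for *Irf4*, *Batf3* and *Zbtb46* in Arg1 macrophages (1, 1 and 0 UMIs) and Cd209a DC (33, 29 and 64).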
